A study of Mus musculus with 12 samples.

Results

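The E proteins Tcf3 (also called E2A), Tcf4 (E2-2) and Tcf12 (HEB) and their inhibitors Id1, Id2 and Id3 were followed in leukemic and normal mouse thymus. The members were all probe sets that the platform annotation assigns to these 6 genes. There were 6 of them, 1 for each gene, among 12422 probe sets tested. They were 98040_at for Tcf3 (chromosome 10), 160483_at for Tcf4 (chromosome 18), 98981_s_at for Tcf12 (chromosome 9), 100050_at for Id1 (chromosome 2), 93013_at for Id2 (chromosome 12) and 92614_at for Id3 (chromosome 4). RNA abundance was read on Affymetrix 3'-end arrays as intensities normalized by the authors with RMA, and all values below are on the log2 scale of these intensities. The 8 leukemia arrays hold cells from the thymus of C57Bl/6 mice of genotype TEL-JAK2 that were terminally ill, and the 4 thymocyte arrays hold cells from the thymus of wild type C57Bl/6 mice aged 2 months. TEL-JAK2 is a fusion of TEL (Etv6) with the Jak2 kinase. The sources used here give neither the age of the ill mice nor the promoter behind the fusion. The thymus was dispersed into a cell suspension, and no sort is named. The labels do not say outright that each array is another mouse, so p-values cover only the spread among these arrays, which may be technical.

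E proteins are basic helix-loop-helix transcription factors that bind DNA as dimers at E-box sequences. Id proteins have the helix-loop-helix but no basic region, so a dimer of an E protein with an Id protein does not bind DNA. In the thymus, Tcf3 and Tcf12 are known to drive early T-cell genes such as those for the pre-T-cell receptor and the recombinase, and signals from the T-cell receptor raise Id3 through ERK kinases and Egr factors. Id2 is known for its high expression in natural killer cells, other innate lymphoid cells and effector T cells. Tcf4 is known for its role in plasmacytoid dendritic cells and B cells, and Id1 as a target of BMP signalling.

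Of the 6 genes, Tcf4 and Id3 were lower in leukemia, none was higher, and Tcf3, Tcf12, Id1 and Id2 did not pass the test (limma, adjusted p under 0.05 over all probe sets). For comparison, 14.5% of all probe sets passed this test, 9.88% as lower and 4.65% as higher in leukemia. The median change of the 6 genes was -0.30, against 0.0072 over all probe sets. The same 2 genes, Tcf4 and Id3, had leukemias and thymocytes that did not overlap, which held for 10.7% of all probe sets (6.84% with all leukemias lower and 3.84% with all higher). In these bulk samples, fewer cells of a type and less RNA per cell cannot be told apart.

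The arrays were similar in brightness, with median intensities from 66.48 to 70.18. Over all genes, 11.9% were lower and 5.41% higher in leukemia, which stands beside the marker counts that follow. Of 14 markers of T cells and thymocytes 13 were measured, none with a mean below the level of the non-mouse control probe sets. Cd2 rose, Cd5, Cd247, Cd4 and Ptcra fell, and the brightest (Thy1 and Cd8b1) were not past the test. The summed intensity was 13951 to 26042 in leukemias and 25619 to 26917 in thymocytes. Of 17 measured macrophage markers 6 had means below the control level in both groups (Adgre1, Mrc1, Itgam, Marco, Msr1 and Axl). None of the 17 passed the test, and their sum ranged from 1482 to 6243 in leukemias and from 1694 to 2256 in thymocytes. Of 11 natural killer markers 7 had means below the control level in both groups (Ncr1, Klrd1, Klrk1, Klrc1, Cd244a, Klra3 and Klra7). Of these Klra3 fell, and the sums of all 11 were 676 to 6915 and 599 to 676. The 11 B-cell markers (Cd72, Cr2 and Pou2af1 below the control level in both groups, none past the test) summed to 2558 to 3527 and 2537 to 2896. The 10 dendritic-cell markers summed to 1490 to 4834 and 3171 to 3458, with Ly6d and Ccl22 the brightest. Of them Irf8 rose by 1.20, and Zbtb46 and Cd83 were below the control level in both groups. Of the 10 endothelial markers 6 were below the control level in both groups (Cdh5, Kdr, Tek, Tie1, Emcn and Cldn5) and Eng fell. They summed to 644 to 836 and 769 to 853. Of the 9 fibroblast markers Pdgfrb, Lum and Sparc were below the control level in both groups, and none passed the test. They summed to 3575 to 5397 and 5173 to 5788, and Thy1 among them is also a T-cell marker. Of 9 thymic epithelial markers Epcam rose and Ccl25 and Krt18 fell (sums 543 to 797 and 742 to 782). The means of Epcam, Krt18 and Foxn1 were below the control level in both groups, and Krt8 and Cldn4 were the brightest. Of 10 neutrophil markers S100a8, Ngp, S100a9 and Camp fell (sums 699 to 911 and 953 to 1156). Mpo, Ly6g and Cxcr2 were below the control level in both groups, and Csf3r and Camp were the brightest. Of 7 erythroid markers Car2 fell and Hemgn was below the control level in both groups (sums 1130 to 6282 and 3388 to 6921). The 4 leukemias and 3 thymocyte arrays whose title number has 4 digits may form a batch of their own, so values are also given within them and with the title number as a block.

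**Figure D1:**
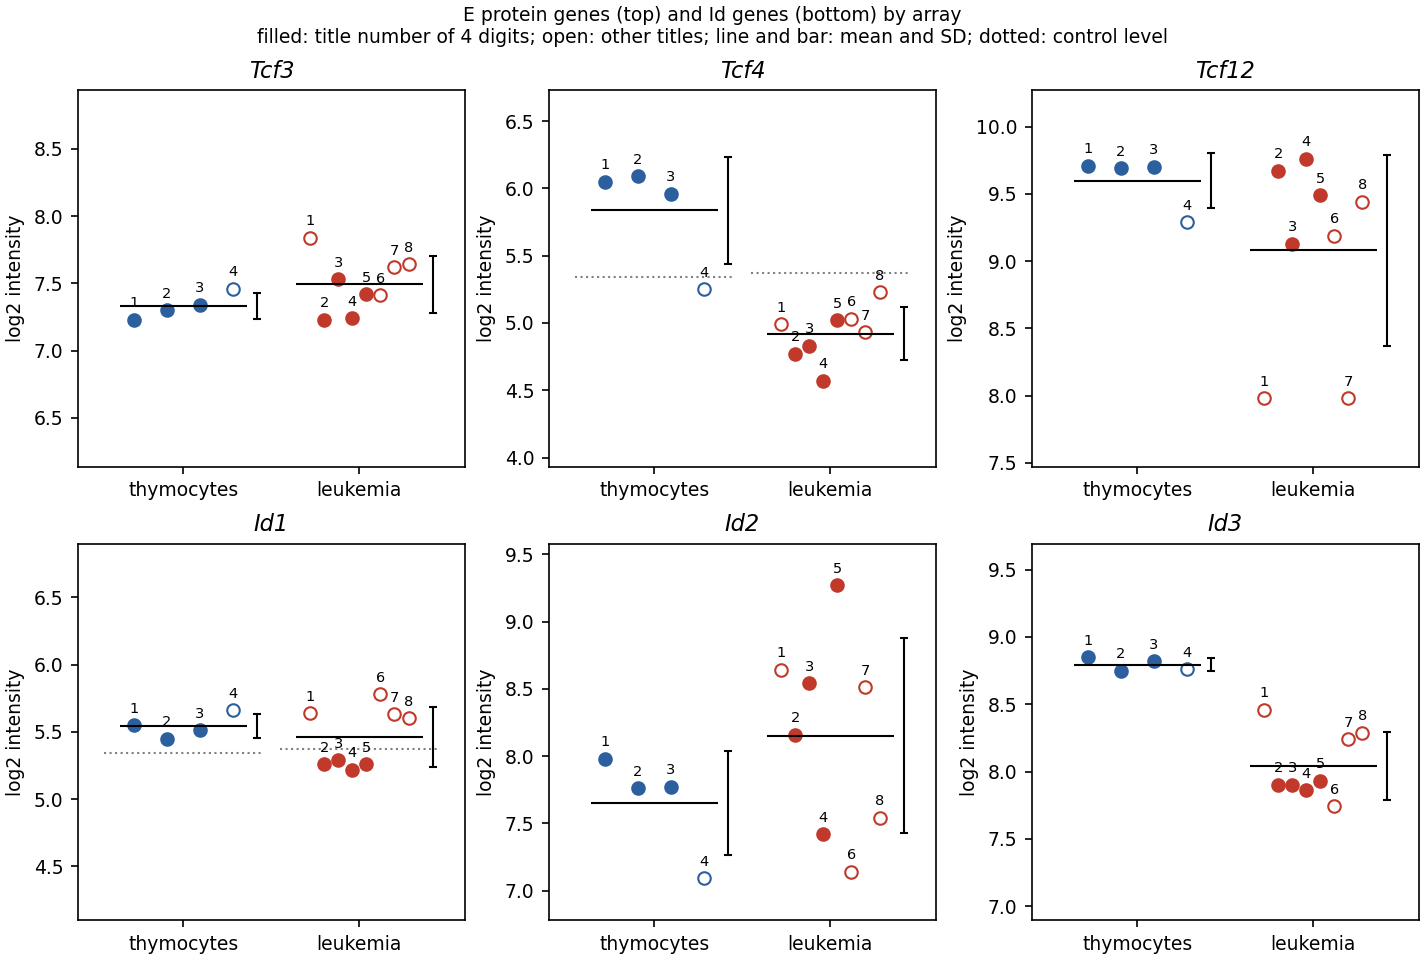
Log2 intensity of the 3 E protein genes and the 3 Id genes (vertical axes, each spanning the same log2 range) in thymocyte arrays 1 to 4 and leukemia arrays 1 to 8, with group mean, SD bar and, where it lies in range, the dotted mean control level. All 8 leukemias lie below the 4 thymocyte arrays for Tcf4 and Id3, and leukemias 1 and 7 lie at 7.98 for Tcf12.

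Tcf4, which encodes the E protein E2-2, was lower in all 8 leukemias than in any thymocyte array. The thymocyte arrays read 6.05, 6.09, 5.96 and 5.25, and the leukemias ran from 4.57 through a median of 4.96 to 5.23. The closest values of the groups, 5.25 in thymocyte array 4 and 5.23 in leukemia 8, are almost equal, and thymocyte array 4 stands apart from the other 3. The group means were 5.84 ± 0.39 (SD, n = 4) and 4.92 ± 0.20 (SD, n = 8), a change of -0.92 (SE 0.15, adjusted p = 0.0011 by limma). The signal was dim: 0 of 8 leukemias and 3 of 4 thymocyte arrays exceeded the control level of their array, which is the 95th percentile over its non-mouse probe sets. The decrease is therefore given as at least 1.38-fold, from the thymocyte mean to the control level of the leukemias. Within the arrays with a 4-digit title number the change was -1.23 (SE 0.10, adjusted p = 0.00017), and with the title number as a block -0.91. Among the other arrays, 4 leukemias against thymocyte array 4 alone, the difference was -0.21 and did not pass (adjusted p = 0.835). With an offset of 32 added to the intensities, which shrinks changes of dim probe sets, the change was -0.52 and still passed.

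Dendritic-cell and B-cell markers stand beside the Tcf4 result because Tcf4 is high in plasmacytoid dendritic cells and B cells. Of the dendritic-cell list 0 of 10 measured markers fell, and of the B-cell list 0 of 11, beside 11.9% lower over all genes. Of the 14 listed dendritic-cell markers, Siglech, Bst2, Cd209a and Klra17 were not measured. The count covers dendritic cells of all kinds, so it cannot speak for plasmacytoid cells alone. Spib, a transcription factor of plasmacytoid and B cells, had a log2 difference of 0.25, Flt3, a growth factor receptor of dendritic-cell precursors, one of 0.24, and Cd79a, a chain of the B-cell receptor, one of 0.70, none past the test. Differences the other way, also not past the test, were -1.36 for Ly6d, the brightest of the dendritic-cell list, and -0.15 for Ccl22. Zbtb46, below the control level in both groups, had -0.17 and was not past the test. The median difference was 0.22 over the dendritic-cell list and 0.12 over the B-cell list. The part of these cells in the Tcf4 result was not tested.

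Tcf3, which encodes the splice forms E12 and E47, was at similar levels in both groups. Thymocyte arrays read 7.23, 7.30, 7.34 and 7.46, and leukemias ranged from 7.23 through a median of 7.47 to 7.84. The groups overlap, with 4 leukemias above all thymocyte arrays and 1 below them. The difference was 0.16 (SE 0.11, adjusted p = 0.396), with a 95% interval from -0.071 to 0.39, so a mean difference of 2-fold lies outside the interval. The 4 leukemias with a 4-digit title number had a mean of 7.36 and the other 4 a mean of 7.63, and the thymocyte arrays followed the same order, 7.29 on average in 3 arrays and 7.46 in the other. Within the 4-digit arrays the group difference was 0.064.

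Tcf12, which encodes HEB, the partner of E2A in thymocytes, varied most among the E protein genes. Thymocyte arrays read 9.71, 9.69, 9.70 and 9.29. Leukemias 2, 3, 4, 5, 6 and 8 read 9.67, 9.13, 9.76, 9.49, 9.19 and 9.44, within or close to the thymocyte range, whereas leukemias 1 and 7 both read 7.98. Leukemias 1 and 7 have no 4-digit title number, nor do leukemias 6 and 8. Leukemias with 4-digit titles averaged 9.51 and the others 8.65. Thymocyte arrays followed the same order, 9.70 on average with 4-digit titles and 9.29 in array 4. The span over leukemias was 3.45-fold, and the SD of 0.71 stood at the 98.1th percentile of the SDs of all probe sets, whose median was 0.17. The mean difference of -0.52 (SE 0.32, adjusted p = 0.359, 95% interval -1.22 to 0.18) did not pass the test. It was -0.15 without leukemias 1 and 7, -0.19 within the 4-digit arrays, -0.33 with the title number as a block and, with a macrophage score in the model, -0.30. The probe set of Tcf12 is of a type (suffix _s_at) that can also bind related transcripts.

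**Figure D2:**
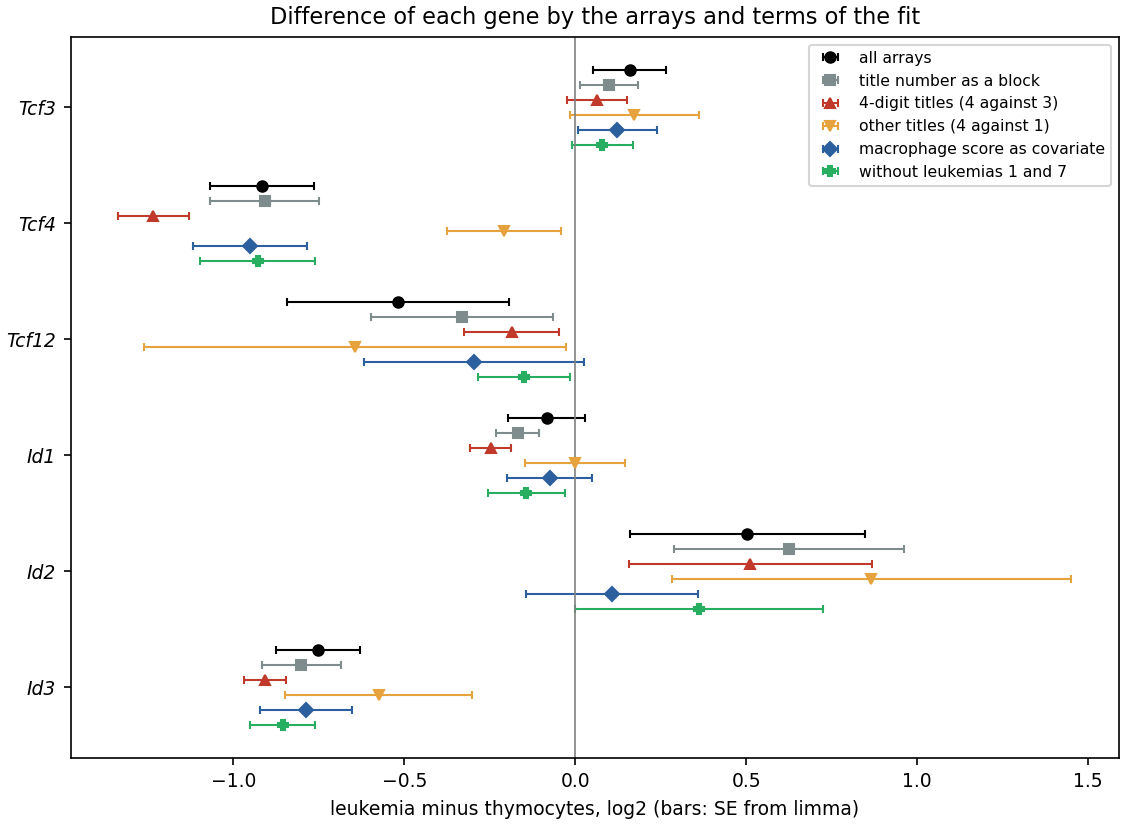
Difference between leukemias and thymocytes on the log2 scale (horizontal axis; bars are SE from limma) for each gene, over all 12 arrays, with the title number as a block, within each title group, with a macrophage score as a covariate, and without leukemias 1 and 7. Tcf4 and Id3 lie below 0 in every fit drawn, with Tcf4 at -0.21 among the arrays without a 4-digit title number, and Id2 goes from 0.50 to 0.11 with the macrophage score.

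The 2 leukemias low in Tcf12 were also the lowest in a list of 19 measured genes of early and double-positive thymocytes, many of them known to be activated by E proteins. The mean score of this list, set to 0 in thymocytes, was -2.01 and -1.64 in leukemias 1 and 7 and between -0.99 and -0.56 in the other 6. Rag1, a subunit of the recombinase, read 4.86 and 7.99 in leukemias 1 and 7, against 9.93 to 11.06 in the other leukemias and 11.83 to 11.99 in thymocytes. Dntt, the polymerase that adds bases at receptor gene joints, read 7.53 and 8.30 there, against 10.56 to 11.12 in leukemias 2, 3, 4, 6 and 8, a value of 10 in leukemia 5, and 11.66 to 11.77 in thymocytes. Runx1, a transcription factor of developing T cells, read 5.41 and 5.73, against 6.99 to 8.13 in the other leukemias and 7.45 to 7.76 in thymocytes. These 3 genes were not past the test between the groups (adjusted p = 0.082 for Rag1, 0.0642 for Dntt and 0.437 for Runx1), and their low values lie in the same 2 arrays as those of Tcf12. They were picked with these values in view, and not every gene of the list followed. In leukemias 1 and 7 Bcl6 read 5.16 and 5.02, against 4.98 to 5.92 in the others. Cd28 read 6.30 and 6.49 there, against 6.08 to 7.30, and Cd3e was lowest in leukemia 8 (10.22). Leukemias 1 and 7 had the lowest scores of the T-cell markers (-1.32 and -0.92, against -0.66 to -0.31 in the other leukemias). That list shares Rag1, Cd4, Ptcra and Cd3e with the 19 genes, so the scores are not independent. Of the T-cell markers outside the 19 genes, Cd8b1 was lowest in leukemias 1 and 7 (10.70 and 11.17, against 11.39 to 12.31). Cd5 was highest there (8.40 and 7.91, against 6.09 to 7.46). Their natural killer scores (0.99 and 1.35) were the highest but did not set them apart. Leukemias 3 and 5 came close at 0.89 and 0.90, with Tcf12 at 9.13 and 9.49, and the others scored -0.11 to 0.18. The macrophage score was highest in leukemia 7 (1.16) and was 0.20 in leukemia 1. The fit with the macrophage score adjusts only the mean difference between the groups, so the part of other cells in these low Tcf12 values was not tested.

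Over all leukemias, 8 of the 19 genes fell, 1 rose and 10 did not pass, with a median of -0.96 against 0.0037 over all genes, of which 17.3% changed (11.9% lower, 5.41% higher). The decreases with the largest moderated statistic were those of the repressor Bcl6 (-3.22), the costimulatory receptor Cd28 (-2.18), the recombinase subunit Rag2 (-2.40 on a thymocyte mean of 8.37) and the semaphorin receptor Plxnd1 (-1.67), all with every leukemia below every thymocyte array, which held for 8.11% of all genes (12.3% without overlap in either direction, 4.21% higher). Cd4, whose enhancer holds E-boxes, fell by 1.89, the chemokine receptor gene Cxcr4 by 1.31, the chromatin organizer Satb1 by 1.93 and Ptcra, which encodes the alpha chain of the pre-T-cell receptor, by 0.96. The gene that rose was the cell cycle inhibitor Cdkn1a (0.32), and no gene of the list rose without thymocyte array 1 or 2. Notch1, which E proteins activate in T-cell progenitors, had a difference of -0.061 and was not past the test. Without leukemias 1 and 7, 10 members fell and 2 rose.

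**Figure D3:**
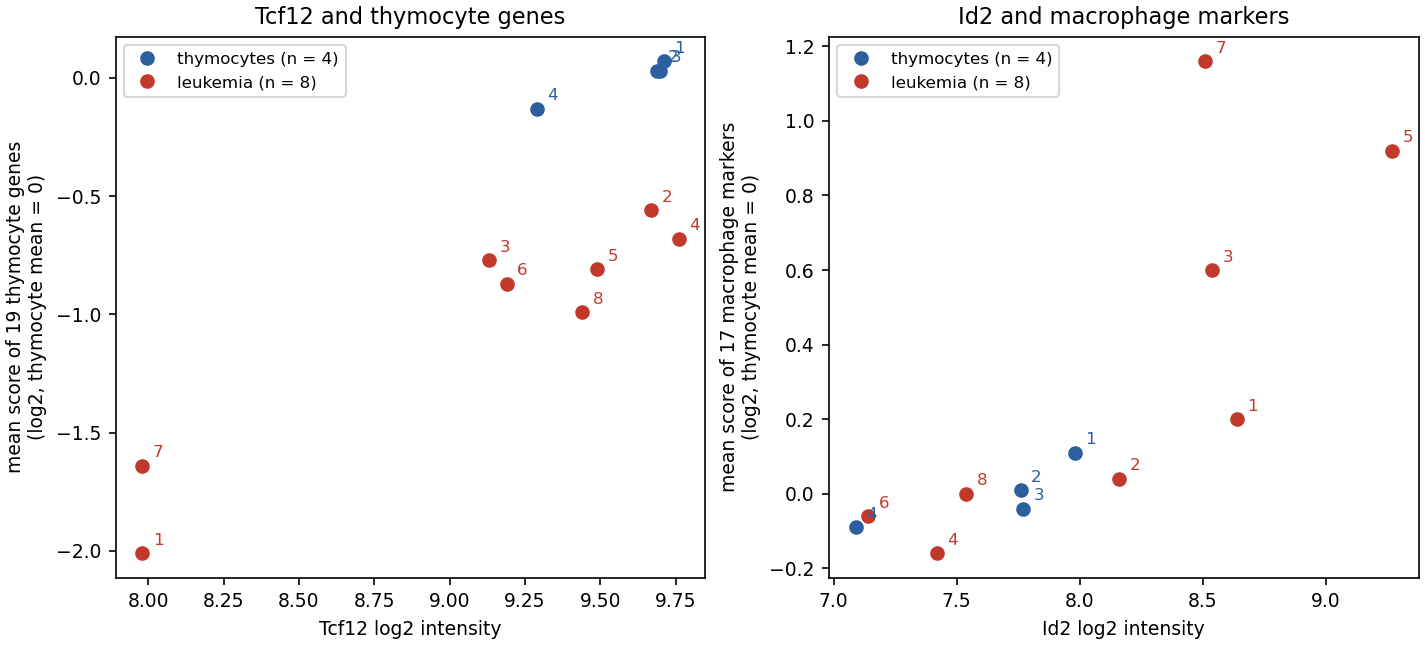
Left, Tcf12 log2 intensity (horizontal) against the mean score of 19 thymocyte genes (vertical, thymocyte mean set to 0). Right, Id2 log2 intensity against the mean score of 17 macrophage markers; numbers are arrays. Leukemias 1 and 7 have the lowest Tcf12 values (7.98) and the lowest thymocyte scores, and leukemia 5, the highest in Id2 (9.27), has a macrophage score of 0.92.

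The Id genes well above the control level were Id2 and Id3, and the bases before their transcription starts are shown because Id3 was lower in every leukemia while Id2 was not. The sequences come from RefSeq (GRCm38.p6), written 5′ to 3′ on the gene's strand and ending 1 base before the start, with E-boxes in capitals. The Id3 window lies at chr4:136143572-136143821 on the plus strand and the Id2 window at chr12:25096093-25096342 on the minus strand.
Id3: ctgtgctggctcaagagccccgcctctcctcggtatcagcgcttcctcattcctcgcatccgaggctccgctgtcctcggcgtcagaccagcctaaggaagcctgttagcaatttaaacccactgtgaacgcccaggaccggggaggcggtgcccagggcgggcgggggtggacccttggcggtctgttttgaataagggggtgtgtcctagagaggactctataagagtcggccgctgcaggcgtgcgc
Id2: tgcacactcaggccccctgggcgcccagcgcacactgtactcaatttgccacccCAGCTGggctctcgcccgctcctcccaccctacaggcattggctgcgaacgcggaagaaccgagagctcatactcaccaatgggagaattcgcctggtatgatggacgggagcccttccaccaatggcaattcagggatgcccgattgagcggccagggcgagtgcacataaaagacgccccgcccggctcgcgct
The E-box CANNTG, which reads alike on both strands, had 1 match in the Id2 window, CAGCTG, with its first base at position -196 counted from the start, and none in the Id3 window. Over the 32851 promoter windows of the same length in the table, 66.2% held a CANNTG. The STAT motif TTCNNNGAA, also the same on both strands, and the Egr motif GCGTGGGCG, searched with its reverse complement CGCCCACGC, had no match in either window. They were found in 7.02% and 0.536% of all windows. The absence of these letters from 250 bases says nothing about the factors. Of the 6 genes, 4 matched a window in the table, among them Tcf3 and Tcf12.

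Id3, the Id gene that T-cell receptor signals induce in thymocytes, was lower in every leukemia. Thymocyte arrays read 8.85, 8.75, 8.82 and 8.76, and leukemias 7.74 at the lowest, 7.92 in the median and 8.46 at the highest. The groups were separate, with the highest leukemia, leukemia 1, still below the lowest thymocyte array. Means were 8.79 ± 0.047 (SD, n = 4) and 8.04 ± 0.25 (SD, n = 8), a change of -0.75 (SE 0.12, adjusted p = 0.00098 by limma), or 1.68-fold. The change was -0.91 within the 4-digit arrays (SE 0.060, adjusted p = 5.0e-05), -0.80 with the title number as a block and -0.57 (adjusted p = 0.601) among the other arrays, where a single thymocyte array stands for its group and is assumed to vary like the leukemias. The 4 leukemias with 4-digit titles lay together at 7.86 to 7.93, and the other 4 ran from 7.74 to 8.46.

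Genes of the receptor, ERK and Egr route that leads to Id3 were partly lower with it. Of 30 listed genes 20 were measured, of which 5 fell, 0 rose and 15 did not pass. Their median was -0.026, against 0.0037 over all genes, of which 11.9% were lower and 5.41% higher. Egr1, the immediate early transcription factor, fell by 1.54 (SE 0.15), its relative Egr2 by 1.21 (SE 0.17) and the nuclear receptor gene Nr4a1 by 1.06 (SE 0.15). Nab2, a corepressor of Egr factors, fell by 1.80 (SE 0.32). Dusp6, a phosphatase of ERK, was below the control level in leukemia, so its decrease is given as at least 2.81-fold. In thymocyte arrays Egr1 read 8.66, 8.26, 8.69 and 8.40, and in leukemias 6.60 to 7.46. Every leukemia was below every thymocyte array for each of these 5 genes, which held for 8.11% of all genes. The ERK pathway genes themselves, such as Map2k1 (0.27), Nras (-0.15), Grb2 (0.037) and Rasgrp1 (-0.42), were not past the test.

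**Figure D4:**
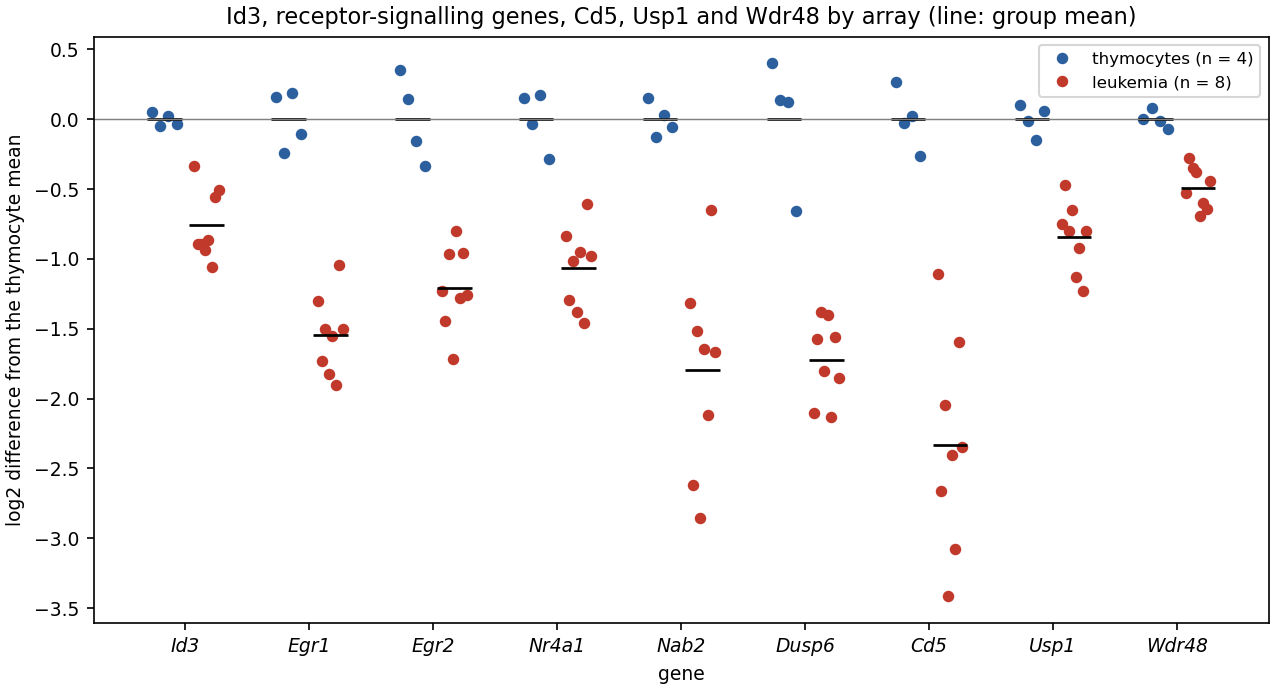
Log2 difference of each array from the thymocyte mean (vertical) for Id3, the receptor-signalling genes Egr1, Egr2, Nr4a1, Nab2, Dusp6 and Cd5, and the deubiquitinase gene Usp1 with its cofactor gene Wdr48; black lines are group means. Besides Id3, the genes drawn were picked from those lower in leukemia, and the 15 measured route genes that did not pass are not drawn. All 8 leukemias lie below all 4 thymocyte arrays for each of these 9 genes, which largely follows from that choice.

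The genes whose pattern over the 12 arrays was most like that of Id3 were Cd5, a surface receptor that follows the strength of receptor signals (Pearson r = 0.957), the netrin gene Ntn1 (0.954) and Cd6, a relative of Cd5 (0.950). These correlations are the highest among 4121 brighter genes, carry the difference between the groups and come with no test. The changes were -2.33 for Cd5, -0.77 for Ntn1 and -1.32 for Cd6, and all 3 genes fell. Over the 8 leukemias alone the nearest were Dnajb5 (0.981), Nckap1l (0.974) and C2cd2 (0.947), none of which differed between the groups past the test.

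Id2, which effector T cells and innate lymphoid cells express at high levels, was spread widely. Thymocyte arrays read 7.98, 7.76, 7.77 and 7.09, and leukemias 1 to 8 read 8.64, 8.16, 8.54, 7.42, 9.27, 7.14, 8.51 and 7.54. Leukemias 1, 2, 3, 5 and 7 lay above all thymocyte arrays, and leukemias 4, 6 and 8 lay within their range. The span over leukemias was 4.37-fold and the SD of 0.73 stood at the 98.3th percentile of all probe sets. In thymocytes the SD of 0.39 stood at the 99.0th percentile. The mean difference of 0.50 (SE 0.34, adjusted p = 0.406, 95% interval -0.24 to 1.24) did not pass the test.

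Of the 5 leukemias above all thymocyte arrays in Id2, leukemias 3, 5 and 7 also had the highest macrophage scores, and leukemias 1, 3, 5 and 7 the highest natural killer scores, while leukemia 2 was high in neither. The mean macrophage score, set to 0 in thymocytes, was 0.92, 1.16 and 0.60 in leukemias 5, 7 and 3, 0.20 in leukemia 1 and -0.16 to 0.04 in leukemias 2, 4, 6 and 8. With this score as a covariate the Id2 difference was 0.11 (SE 0.25, adjusted p = 0.858). The score of natural killer markers was 0.99, 0.89, 0.90 and 1.35 in leukemias 1, 3, 5 and 7 and -0.11 to 0.18 in the others. It includes the granzyme gene Gzmb, at 11.02 to 12.22 in those 4 leukemias and at 5.88 to 7.96 in the other 4. Ncr1 and Klrd1, 2 further genes of this score, had means below the control level in both groups, and such dim probe sets say little either way. The dendritic-cell score was -0.04 to 0.42 in leukemias 1, 2, 3, 5 and 7 and -0.25 to -0.17 in leukemias 4, 6 and 8. The B-cell score was 0.19 to 0.69 and -0.13 to 0.06 in the same leukemias. The fit above adjusts for the macrophage score only, and the part of all these cells in the Id2 values was not tested further.

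The genes most like Id2 over the 8 leukemias were Napsa, an aspartic protease (r = 0.975), Evi2a (0.963) and Ostf1 (0.948), and over the 12 arrays Ostf1 (0.935), Camk2b (0.915) and Napsa (0.907). Of these Evi2a rose (1.23, SE 0.13) and the others were not past the test. In the list of genes that E proteins restrain or that go with Id activity in T cells, 16 were measured. Of them 3 rose and 1 fell, beside 5.41% higher and 11.9% lower over all genes. The list's median was 0.18, against 0.0037 over all genes. The survival gene Bcl2 rose by 2.26 (SE 0.20) and the interleukin-2 receptor chain Il2rb by 1.78 (SE 0.47). The chain Il2ra rose at least 3.14-fold from a thymocyte mean below the control level. Sox4, a transcription factor of immature lymphocytes, fell by 1.61 (SE 0.39). Il7r, the interleukin-7 receptor, below the control level in leukemia, had a difference of -0.66 that was not past the test. The effector regulators Prdm1 and Eomes had means below the control level in both groups.

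Id1, a target of BMP signals with little expression in T cells, was close to the control level. Thymocyte arrays read 5.55, 5.45, 5.51 and 5.66, and leukemias 5.22 at the lowest, 5.44 in the median and 5.78 at the highest, where the mean control level was 5.34 and 5.37. Of the leukemias 4 of 8 lay above the control level of their array. The difference over all arrays was -0.084 (SE 0.11, adjusted p = 0.703, 95% interval -0.33 to 0.16). The values followed the title number: the 4 leukemias with 4-digit titles read 5.22 to 5.29 and the other 4 read 5.60 to 5.78, and thymocyte array 4 at 5.66 lay above the 3 with 4-digit titles. Within the 4-digit arrays the difference was -0.25 (SE 0.060) and passed the test (adjusted p = 0.0271), with the title number as a block it was -0.17 (adjusted p = 0.0917), and among the other arrays it was -0.0010. Id4, the remaining Id gene and not among the 6, was below the control level on every array (3.78 to 4.09).

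Genes of BMP and TGF-beta signalling, which feeds into Id genes, changed in both directions. Of 31 listed genes 28 were measured, of which 2 rose, 4 fell and 22 did not pass, beside 5.41% higher and 11.9% lower over all genes. The median was -0.0031, and 9 had means below the control level in both groups. Smad1, which carries BMP signals to the nucleus, fell by 0.96 (SE 0.17), the receptor gene Acvrl1 by 0.32 and its coreceptor gene Eng by 0.38. Acvr2a, below the control level in both groups, fell by 0.31. The ligand gene Bmp7 rose by 0.46 and the inhibitory Smad7 by 0.41. Without thymocyte array 1, 2 genes fell and 1 rose, and without array 2 no gene rose.

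Genes that control the turnover of E and Id proteins were lower where they changed. Of 9 measured genes 5 fell, 0 rose and 4 did not pass, beside 11.9% lower and 5.41% higher over all genes. The list's median was -0.43, against 0.0037 over all genes. Usp1, the enzyme that removes ubiquitin from Id proteins, fell by 0.85 (SE 0.12) and its cofactor gene Wdr48 by 0.49 (SE 0.083). Usp1 read 8.42, 8.31, 8.17 and 8.38 in thymocytes and 7.09 to 7.85 in leukemias, with no overlap. Over all genes, 8.11% had every leukemia below every thymocyte array. The ubiquitin ligase genes Stub1 and Cul1 fell by 0.43 and 0.39, and Cdc20, an activator of the mitotic ubiquitin ligase, by 0.91. Without thymocyte array 2 only 3 of these genes passed the test.

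Among helix-loop-helix partners and cofactors of E proteins 23 of 25 were measured, of which 1 rose, 2 fell and 20 did not pass. The median was 0.0011, beside 0.0037 over all genes, of which 5.41% were higher and 11.9% lower. Bhlhe40, a helix-loop-helix repressor induced in activated T cells, rose at least 2.90-fold from a thymocyte mean below the control level. Its log2 values were 4.77 to 5.27 in thymocytes and 6.50 to 7.40 in leukemias. Ldb1, which bridges complexes of E proteins, LMO and GATA factors, fell by 0.45 (SE 0.065), and the corepressor gene Cbfa2t2 by 0.49 (SE 0.13), while its relative Cbfa2t3 had a difference of 0.34 and was not past the test. Tal1, a partner of E proteins that drives some T-cell leukemias, was below the control level in both groups. Lyl1, a relative of Tal1, read 7.53 and 7.47 in leukemias 5 and 7 and 6.56 and 6.43 in leukemias 1 and 3. It read 5.61 to 5.87 in the other leukemias and 5.37 to 5.76 in thymocytes (difference 0.82, adjusted p = 0.141). Of 14 measured B-lineage targets of E proteins 1 rose, Irf8 (1.20, SE 0.35), and 1 fell, Rag2, beside the same shares over all genes. Cd79a (0.70) and Rag1 were not past the test, and the list's median was 0.11. No gene of this list rose without leukemia 5 or without thymocyte array 1, 2 or 3, 2 rose without leukemia 4, and 2 fell without leukemia 1. In the list of partners 2 genes rose without leukemia 1, 4 or 7, and 1 fell without thymocyte array 1. The probe sets of Bcl2, Evi2a, Dntt, Lyl1, Smad1, Acvrl1, Wdr48 and Flt3 are of types that can cross-hybridize.

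Relations among the 6 genes were computed over the 8 leukemias for all 15 pairs. In Tcf12, Id1 and Id3 the largest gap between neighbouring leukemias took 64.3%, 55.9% and 42.2% of the range. A gap over 40%, a limit chosen after seeing the data, was read as separate clusters. Pooled correlations of pairs that hold one of these genes are left out, except the 2 with an unadjusted Pearson p under 0.05, and Tcf12 with Id1. These exceptions were picked by their p-values and span the gaps between clusters. Tcf3 with Id3 had r = 0.854 (exact permutation p = 0.00625, adjusted 0.0938), and 0.783 without leukemias 1 and 2. Tcf3 with Tcf12 had r = -0.804 (exact permutation p = 0.0154, adjusted 0.115), and -0.62 without leukemias 1 and 2. Leaving out these 2 arrays keeps leukemia 7 in the low Tcf12 cluster and leukemias 7 and 8 in the high Id3 cluster. Tcf12 with Id1 had Spearman rho -0.762 (exact permutation p = 0.0368, adjusted 0.229) and Pearson r -0.606 (exact permutation p = 0.136, adjusted 0.292). Neither title group has enough leukemias to repeat a correlation within it. For Tcf3 and Tcf4, Pearson r was 0.612 (exact permutation p = 0.104, adjusted 0.267 over 15 pairs) and Spearman rho 0.524 (exact permutation p = 0.197, adjusted 0.421), and r was 0.701 without leukemias 1 and 2. For Tcf3 and Id2, r was 0.303 (exact permutation p = 0.464, adjusted 0.547) and rho 0.429 (exact permutation p = 0.299, adjusted 0.499), and r was 0.235 without the same arrays. For Tcf4 and Id2, r was 0.064 (exact permutation p = 0.886, adjusted 0.886) and rho 0.00 (exact permutation p = 1, adjusted 1), and r was -0.025 without leukemias 4 and 8. No pair of the 15 passed after adjustment.

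For the remaining members, the nearest genes were Macir (r = 0.941), Phxr4 (0.935) and Xpo6 (0.934) for Tcf4 over the 12 arrays, all of which fell, by 1.24, 0.65 and 0.41. Over the 8 leukemias they were Twist2 (0.949), Utp20 (0.942) and Dnm2 (0.933). For Tcf12 they were Gsk3a (0.981), Spata6 (0.974) and Pla2g6 (0.972) over the 12 arrays and the RNA-binding protein gene Pum2 (0.995), Mxd4 (0.990) and Pla2g6 (0.986) over the leukemias, of which Pum2 fell (-0.55). For Tcf3 they were Pofut2 (0.929), Ehd1 (0.918) and Gucy2e (0.913) over the 12 arrays, and Mrpl27 (0.954), Mdn1 (0.952) and Myl4 (0.944) over the leukemias. For Id1 they were Rdh11 (0.944), Ptpa (0.928) and Tst (0.926), and over the leukemias Kcnj9 (0.988), Ptpa (0.986) and Gpcpd1 (0.986). None of the genes named for Tcf3 and Id1 differed between the groups past the test, and all these correlations rest on arrays that share their title groups. Over the leukemias, those for Tcf12 and Id1, and those for Id3 above, also span the gaps between clusters.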

How the data were processed

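RNA from thymus cell suspensions was hybridized to Affymetrix arrays, per the labels' protocols. The authors deposited linear intensities, 1 per probe set and array; the submitters' processing notes name RMA. The table held 12488 probe sets, of which 66 controls were left out of tests. Their log2 was taken with no offset added. The group difference was fitted by lmFit and eBayes of limma 3.58.1 under R 4.3.3, two-sided and with no covariate, over 12422 probe sets, or over 8251 genes for the gene lists, each gene by its probe set with the highest mean, with Benjamini-Hochberg adjustment at 0.05. All adjusted p-values of single genes come from limma. The fit was checked on simulated data. The control level of an array is the 95th percentile of 19 non-mouse control probe sets. Where 1 group mean lay below it, a fold is a lower bound, taken from the other mean to the higher of control level and value. Gene names come from the platform annotation, updated through gene IDs.

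Named genes were the 6 members, the 4 genes of each pathway list with the largest moderated statistic, the 3 nearest brighter genes to each member by Pearson correlation over the 12 arrays and over the 8 leukemias, and the 2 brightest of each cell list with a 2-fold change. Further genes of the lists, Id4 included, were picked with their values in view. The members and lists were chosen with earlier results of these data known. Alternatives covered normalization, offset, dim probe sets, variance model, thresholds, title numbers, macrophage score, probe set choice and left-out arrays. Leaving out leukemias 1 and 7, leaving out leukemia 6 and thymocyte array 4, and the arrays without a 4-digit title alone were chosen after seeing the data, as was the limit of 40% for separate clusters.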

Additional observations from a re-analysis of the deposited data

Results flagged for a closer look

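Thymocyte array 4 stood apart from the other 3 thymocyte arrays in 2 of the 6 genes. Its Tcf4 value of 5.25 was the lowest of the 4, with a gap to the next that took 0.851 of the range, above the critical 0.829. Its Tcf12 value of 9.29 was also the lowest, with a gap of 0.951 of the range. Chance alone flags about 1 in 20 groups, and 12 groups were looked at. This array has no number in its title, and its 3' Actb control probe set read 12.75, against 13.52 to 13.64 in the other thymocyte arrays; leukemia 6, at 12.60, was the only leukemia below 13.23. Without leukemia 6 and thymocyte array 4 the change was -1.13 for Tcf4 and -0.64 for Tcf12.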

How the results depend on the processing

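Over 26 of 28 alternatives for Tcf4 and 27 of 29 for Id3 the decrease kept its direction and passed the test. The exceptions were limma's treat against a 1.5-fold change (-0.92 and -0.75) and the arrays without a 4-digit title number, chosen after seeing the data (-0.21 and -0.57). Id1 passed only within the 4-digit titles (-0.25), and Tcf3, Tcf12 and Id2 in no alternative. Tcf4, Tcf12 and Id1 have 1 alternative fewer because a filter removes their probe set. Leaving out 1 array at a time gave changes of -1.11 to -0.83 for Tcf4, -0.81 to -0.71 for Id3, 0.11 to 0.20 for Tcf3, -0.62 to -0.36 for Tcf12, -0.13 to -0.044 for Id1 and 0.32 to 0.65 for Id2. Over all probe sets 1805 were called, and 1162 to 2044 with 1 array left out (1162 without thymocyte array 1, 1185 without array 2), 1008 at an adjusted p under 0.01, 128 with treat and 13 in the arrays without a 4-digit title. With the title number as a block 2039 were called. Of the 15 relations between members, 0 passed in the main setting (2 had an unadjusted exact permutation p under 0.05 for Pearson r), and 0 to 2 passed with 1 leukemia left out (2 without leukemia 6, 1 without leukemia 8). Counts in the lists moved by more than 1.5 times in up to 12 of 29 alternatives. The count of decreases moved so in 2 of the 29 for the thymocyte list and in 3 for the ERK list. The count of genes that rose in these 2 lists moved so in 10 and 7. With any 1 array left out the thymocyte list held 7 to 10 decreases and the ERK list 5. No paired analysis was possible because the labels give no replicate numbers shared between the groups.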
